A study of Mus musculus with 6 samples.

Results

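The genes described here are 10 transcripts that the mouse uterus is known to make under the progesterone receptor: Hand2, Ihh, Nr2f2, Gata2, Lrp2, Cited2, Irs2, Ramp3, Cyp26a1 and Alox15. They were found as the probes whose gene symbol in the platform annotation is one of these names, which gave 13 of the 37932 probes on the array. All 10 names were matched, among 21878 genes in all. Lrp2 had 3 probes, Ramp3 had 2, and each of the other genes had 1.

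RNA came from ovarian tumours of mice made to express PGR-B, the longer of the progesterone receptor's main protein forms. Tumours measured 0.5 to 1 cm across, and each mouse carried a slow-release pellet of either placebo or RU486 for 24 h before the tissue was taken. RU486, also named mifepristone, is a steroidal antagonist of the progesterone receptor and of the glucocorticoid receptor. There were 3 arrays of the placebo group and 3 of the RU486 group, each hybridised with Cy3-labelled total RNA. Both groups had the same genotype, written Pgrcre/+mPgrLsL/+ in the sample labels and Pgrcre/+PgrBLsL/+ in the description of the design, so Cre recombinase was expressed from 1 copy of the Pgr gene in the controls as well. The labels do not give the age of the mice or say whether each array holds another animal, so p-values measure the spread between these samples, which may be technical. Mice without a tumour or without the PGR-B allele were not analysed here.

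The progesterone receptor is a nuclear receptor that, once bound by hormone, enters the nucleus, binds DNA and recruits coactivators. In the uterus it acts in epithelium and stroma together. Epithelial Ihh signals to stromal cells, where Nr2f2 and Hand2 follow, and stromal Hand2 in turn restrains the growth factor signals that make the epithelium divide. These roles are known from the uterus and serve here only as background for ovarian tumours.

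The deposited values are scores: every probe had been centred and scaled over the 6 arrays, so a score is a distance from that probe's own mean in units of its own SD. Scores show which arrays are high or low for a gene. They hold no brightness and no fold change, levels of different genes cannot be compared, and the labelled tissue could not be checked against absent or present markers. Each difference below subtracts the mean placebo score from the mean RU486 score, and 1.83 is the largest size it can take with all 6 arrays at equal weight. Higher scores are read here as brighter probes, which the labels do not state. Bulk RNA cannot tell fewer cells of a type from less RNA per cell.

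The promoter windows printed here are shown because they belong to the genes whose groups stood farthest apart in each direction (Hand2 and Lrp2 lower, Cited2 higher) and to the gene with a known response element for another nuclear hormone (Cyp26a1). Each holds the 250 bases before the annotated start, 5′ to 3′ on the gene's strand, from the RefSeq table of mouse assembly GRCm38.p6. They lie at chr8:57320733-57320982 on the plus strand for Hand2, chr2:69586030-69586279 on the minus strand for Lrp2, chr10:17722978-17723227 on the plus strand for Cited2 and chr19:37697558-37697807 on the plus strand for Cyp26a1. Capitals mark TATATTAA in Hand2 and Cited2, and the retinoid direct repeat in Cyp26a1; no searched motif was found in the Lrp2 window.
Hand2: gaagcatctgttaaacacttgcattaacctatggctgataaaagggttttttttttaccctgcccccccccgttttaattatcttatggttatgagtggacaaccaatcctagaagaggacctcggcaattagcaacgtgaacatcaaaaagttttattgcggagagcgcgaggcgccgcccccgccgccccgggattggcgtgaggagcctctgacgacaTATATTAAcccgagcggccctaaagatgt
Lrp2: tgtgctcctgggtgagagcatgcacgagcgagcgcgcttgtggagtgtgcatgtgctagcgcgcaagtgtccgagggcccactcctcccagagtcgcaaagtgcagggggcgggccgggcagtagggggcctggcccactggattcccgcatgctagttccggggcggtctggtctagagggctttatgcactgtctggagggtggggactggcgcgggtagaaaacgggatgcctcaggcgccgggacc
Cited2: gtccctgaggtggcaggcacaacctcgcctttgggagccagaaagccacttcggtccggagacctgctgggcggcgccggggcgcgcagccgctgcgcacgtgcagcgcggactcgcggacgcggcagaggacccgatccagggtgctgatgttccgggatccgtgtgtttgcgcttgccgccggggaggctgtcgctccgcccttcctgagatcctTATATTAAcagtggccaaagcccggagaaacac
Cyp26a1: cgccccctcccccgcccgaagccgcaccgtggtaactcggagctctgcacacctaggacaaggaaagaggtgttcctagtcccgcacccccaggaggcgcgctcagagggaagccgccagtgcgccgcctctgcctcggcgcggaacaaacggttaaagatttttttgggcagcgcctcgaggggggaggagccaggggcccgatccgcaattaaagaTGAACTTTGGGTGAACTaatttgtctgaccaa

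RefSeq listed 10 windows for 9 of the 10 genes, with 2 for Gata2; Alox15 is named only. The palindromic element that progesterone and glucocorticoid receptors bind, searched as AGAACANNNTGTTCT on both strands, was found in 0 of these 10 windows and in 0.00913% of all 32851 windows of that length. Its inner letters, ACANNNTGT, which are part of the longer form, were in 0 of 10 windows and in 5.84% of all windows. The single arm AGAACA, searched on both strands and contained in the full element, was also in 0 of 10 windows, against 16.1% of all windows. No match says only that these letters are not in the windows. In the Cyp26a1 window the direct repeat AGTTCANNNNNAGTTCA, the type of element through which retinoic acid acts on this gene, was read on the opposite strand with its first base at position -32 from the start; 0.0213% of all windows, 7 in number, hold it. The letters TATATTAA began at -29 in Hand2 and at -33 in Cited2 and were in 0.694% of all windows. The retinoid and TATA-like letters were searched after the sequences had been seen. GC content was 49.2% in the Hand2 window, 66.4% in Lrp2, 66.8% in Cited2 and 61.6% in Cyp26a1.

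Of the 10 genes, 4 had all their RU486 scores below all their placebo scores (Hand2, Lrp2, Irs2 and Ramp3), against 10.8% of all genes, and 1 (Cited2) had them all above, against 11.2% of all genes. These 4 genes also had an unadjusted p under 0.05 and a lower RU486 mean, which 7.08% of all genes had, and Cited2 had one with a higher RU486 mean, as did 5.24% of all genes. Hand2 and Lrp2 kept such a p with any 1 array left out; Irs2 lost it without placebo array 2, placebo array 3, RU486 array 2 or RU486 array 3, Ramp3 without placebo array 1 or RU486 array 1, 2 or 3, and Cited2 without placebo array 1, 2 or 3 or RU486 array 2. With limma's ordinary statistic and Benjamini-Hochberg adjustment over all 21878 genes, 0 of the 10 passed 0.05, and 0 with limma's eBayes moderation, which gave every scaled gene the same SE of 0.757 and a smallest p of 0.0159 and so could hardly call any. Over all genes, 1 passed the ordinary test, 0.00457% of those tested. The RU486 mean was lower in 6 of the 10 genes and higher in 4, with a median difference of -0.67; over all genes 51.6% were lower and the median was -0.06. The median of the 10 genes moved to -0.16 when RU486 array 1 was left out and to -0.37 when placebo array 3 was. It moved to -1.26 when placebo array 1 was left out and to -1.27 when arrays were weighted. The weights were 0.47, 4.96 and 0.93 for placebo arrays 1 to 3 and 1.20, 0.34 and 1.12 for RU486 arrays 1 to 3. Weighted placebo means here and below therefore rest mostly on array 2.

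**Figure D1:**
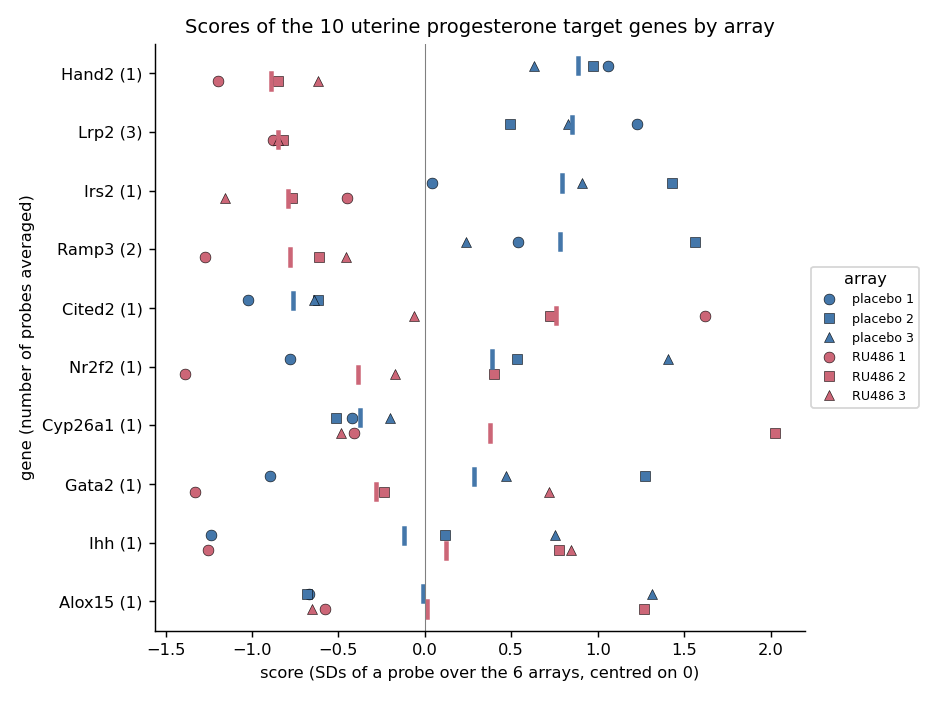
Score of each gene on each array, in units of a probe's SD, with placebo arrays in blue, RU486 arrays in red, a symbol shape for each replicate number and a bar at each group mean. The groups lie apart in the first 5 genes from the top (Hand2, Lrp2, Irs2, Ramp3 and Cited2) and overlap in the other 5.

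Among the transcription factors of the stroma, Hand2 differed most. Hand2 is a basic helix-loop-helix factor that progesterone induces in uterine stroma. Its scores were 1.06, 0.97 and 0.63 on placebo arrays 1 to 3 and -1.20, -0.85 and -0.62 on RU486 arrays 1 to 3. All 3 placebo arrays were high and all 3 RU486 arrays low, with a gap of 1.25 between the groups. The difference was -1.78 (SE 0.213, 95% confidence interval -2.37 to -1.18), close to the largest size possible, with a limma adjusted p of 0.217. It ranked 114th of all genes by p. Such intervals come from the t distribution and can pass the limit of the scale.

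Nr2f2 encodes COUP-TFII, an orphan nuclear receptor of the uterine stroma that acts after Ihh. Its scores were -0.78, 0.54 and 1.41 with placebo and -1.39, 0.40 and -0.17 with RU486. Array 1 was the lowest of each group, and the groups overlapped. The difference was -0.77 (SE 0.827, 95% confidence interval -3.07 to 1.52, limma adjusted p 0.752), an interval that spans differences of either sign.

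Gata2, a zinc-finger factor that works with the receptor in uterine epithelium and is needed there for Pgr expression, was similar to Nr2f2 in its low first arrays. Placebo scores were -0.89, 1.28 and 0.47, and RU486 scores were -1.33, -0.24 and 0.72. The groups overlapped. The difference was -0.57 (SE 0.868, 95% confidence interval -2.98 to 1.84), with a limma adjusted p of 0.818.

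Ihh, the hedgehog ligand that uterine epithelium secretes under progesterone, did not follow Hand2. It scored -1.23, 0.12 and 0.75 with placebo and -1.26, 0.78 and 0.85 with RU486. Array 1 was far below the others in both groups, and the groups overlapped. Without RU486 array 1 they did not overlap, and the RU486 mean was higher by 0.93. The difference was 0.24 (SE 0.905, 95% confidence interval -2.27 to 2.76; limma adjusted p 0.927), and its sign turned when placebo array 1 (-0.31), RU486 array 2 (-0.08) or RU486 array 3 (-0.12) was left out and when arrays were weighted (-0.22). Ihh, Nr2f2 and Gata2 are the 3 genes of the 10 whose lowest 2 scores were on the first array of each group. The same held for 19.8% of all genes, and those arrays also had the lowest median scores over all genes, -0.384 for placebo array 1 and -0.363 for RU486 array 1. The part of these arrays in the 3 genes was not tested.

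Cited2 was the gene that stood higher with RU486. It encodes a transcriptional regulator that binds the coactivators CBP and p300 and limits transcription by hypoxia-inducible factors. Scores were -1.03, -0.62 and -0.64 with placebo and 1.62, 0.73 and -0.06 with RU486. All RU486 arrays were above all placebo arrays, but RU486 array 3 was only 0.555 above the nearest placebo array. The difference was 1.52 (SE 0.503, 95% confidence interval 0.13 to 2.92), with a limma adjusted p of 0.390.

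**Figure D2:**
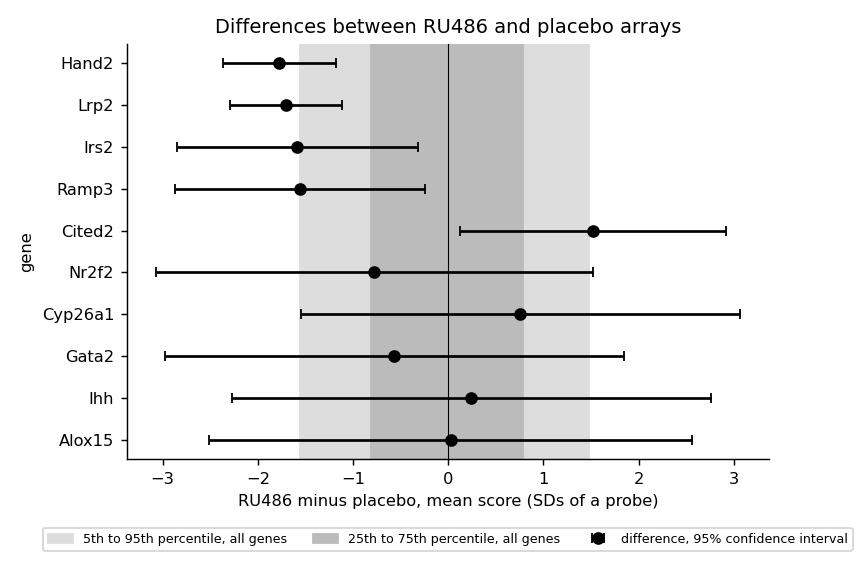
RU486 minus placebo difference of each gene (points) with its 95% confidence interval (bars), in SDs of a probe, over shaded bands for the middle 50% and the 5th to 95th percentile of all 21878 genes. Hand2, Lrp2, Irs2 and Ramp3 lie at or beyond the 5th percentile of -1.56, and Cited2 lies beyond the 95th of 1.48.

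Lrp2 was the other gene close to the limit of the scale. It encodes megalin, a large endocytic receptor of the LDL receptor family that takes up carrier proteins, among them those of steroids and vitamins. Averaged over 3 probes, its scores were 1.23, 0.49 and 0.83 with placebo and -0.88, -0.82 and -0.85 with RU486. The RU486 arrays lay almost on 1 point, and the gap to the lowest placebo array was 1.31. The difference was -1.70 (SE 0.212, 95% confidence interval -2.29 to -1.11), with a limma adjusted p of 0.225 and rank 126 of all genes by p.

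The 3 Lrp2 probes did not spread alike. The first scored 1.18, 0.76 and 0.76 with placebo and -0.94, -0.85 and -0.91 with RU486, a difference of -1.80 (SE 0.141). The second scored 0.77, 0.78 and 1.16 against -0.90, -0.95 and -0.87, a difference of -1.81 (SE 0.133). In both, the groups were far apart and tight. The third ranged more widely with placebo, at 1.73, -0.06 and 0.56, against -0.80, -0.66 and -0.78 with RU486, and its difference was -1.49 (SE 0.527). Its groups did not overlap either, though placebo array 2 came close to the RU486 arrays.

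Irs2 and Ramp3 both pass signals of receptors at the cell surface. Irs2 is an adaptor protein that links the insulin and IGF1 receptors to PI3 kinase. It scored 0.04, 1.43 and 0.91 with placebo and -0.45, -0.77 and -1.16 with RU486. The RU486 arrays were all below the placebo arrays, of which array 1 was the nearest at a gap of 0.488. The difference was -1.58 (SE 0.454, 95% confidence interval -2.84 to -0.32), with a limma adjusted p of 0.390.

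Ramp3 encodes a membrane protein that joins the calcitonin receptor-like receptor, Calcrl, to form a receptor for adrenomedullin. The mean of its 2 probes was 0.54, 1.57 and 0.24 with placebo and -1.27, -0.61 and -0.46 with RU486. The groups were 0.696 apart, with placebo array 2 the highest and RU486 array 1 the lowest. The difference was -1.56 (SE 0.473, 95% confidence interval -2.87 to -0.25), with a limma adjusted p of 0.390. Its probes gave nearly the same value, -1.58 (SE 0.458) and -1.54 (SE 0.488).

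**Figure D3:**
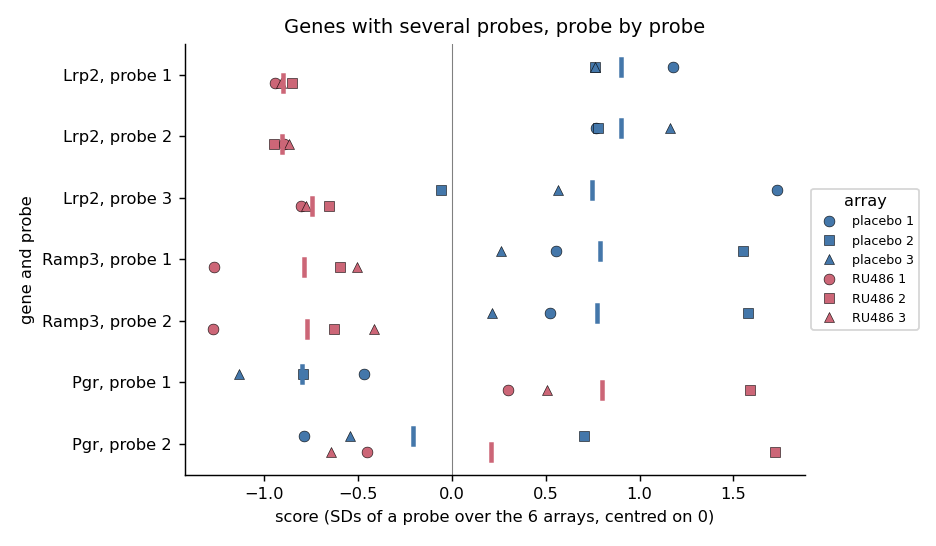
Scores of single probes for Lrp2, Ramp3 and Pgr on each array, in units of a probe's SD, with a bar at each group mean. The 3 Lrp2 probes and both Ramp3 probes have groups that do not overlap, while of the 2 Pgr probes the first has higher RU486 scores and the second overlaps.

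The enzymes of the set, Cyp26a1 and Alox15, had overlapping groups and were high on single arrays. Cyp26a1 breaks down retinoic acid and is induced by progesterone in the epithelium of the mouse uterus. Its scores were -0.42, -0.51 and -0.20 with placebo and -0.41, 2.03 and -0.49 with RU486. RU486 array 2 alone was high, near the largest score that 6 arrays allow, 2.04, and the other 5 arrays were together. The difference of 0.76 (SE 0.831, 95% confidence interval -1.55 to 3.06; limma adjusted p 0.760) became -0.07 without that array.

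Alox15, a lipoxygenase that oxygenates polyunsaturated fatty acids and that progesterone raises in uterine epithelium, was high on 1 array of each group. It scored -0.67, -0.68 and 1.31 with placebo and -0.58, 1.27 and -0.65 with RU486. Placebo array 3 and RU486 array 2 stood apart from the other 4 arrays, which were nearly level. The difference was 0.03 (SE 0.913, 95% confidence interval -2.51 to 2.56; limma adjusted p 0.992), and it moved to 0.69 when placebo array 3 was left out, to -0.60 when RU486 array 2 was, and to -0.30 and -0.31 when placebo arrays 1 and 2 were.

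The same arrays were high for markers of uterus and oviduct. Of the 12 markers listed, 6 had their 2 highest scores on placebo array 3 and RU486 array 2, as did 8 of 12 stromal, 7 of 12 macrophage, 7 of 12 muscle and 4 of 12 epithelial markers, against 16.2% of all genes. The mean of the uterus and oviduct markers was -0.47, -0.56 and 1.06 with placebo and -0.52, 0.53 and -0.04 with RU486. Ovgp1, which encodes the oviduct's secreted glycoprotein, scored -0.62, -0.61 and 1.74 with placebo and -0.61, 0.70 and -0.60 with RU486. Foxj1, the factor that drives the making of motile cilia, scored -0.62, -0.62 and 1.68 with placebo and -0.61, 0.79 and -0.62 with RU486. Both genes were chosen after their values were seen, and other markers of the list peaked elsewhere. Foxa2 was highest on placebo array 1 (1.15) and Emx2 on placebo array 2 (1.33). Hoxd10 and Sprr2f were highest on RU486 array 3 (1.67 and 1.64). Whether uterus or oviduct tissue took part in the Alox15 scores was not tested.

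**Figure D4:**
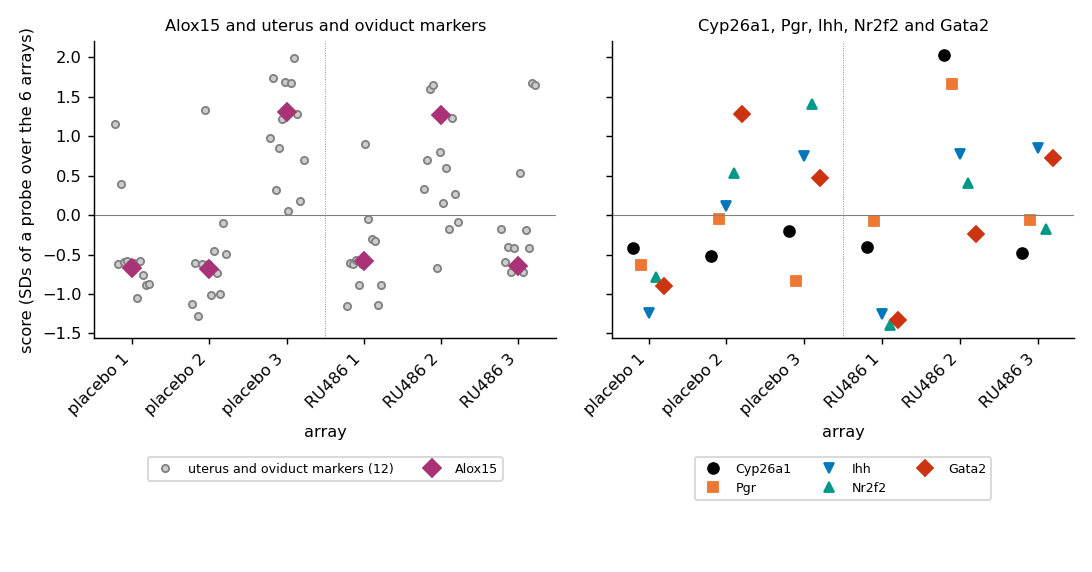
Scores by array of Alox15 with the 12 uterus and oviduct markers in grey (left), and of Cyp26a1, Pgr, Ihh, Nr2f2 and Gata2 (right), in units of a probe's SD. Alox15 is high on placebo array 3 and RU486 array 2, where most of the grey points are above 0; Cyp26a1 is high on RU486 array 2 alone, and Ihh, Nr2f2 and Gata2 are lowest on array 1 of each group.

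The receptor's own transcript, Pgr, gave different answers with its 2 probes. The first scored -0.47, -0.79 and -1.14 with placebo and 0.30, 1.59 and 0.51 with RU486, a difference of 1.60 (SE 0.443), and every RU486 array was above every placebo array. The second scored -0.79, 0.70 and -0.54 against -0.45, 1.72 and -0.64, a difference of 0.42 (SE 0.888), with overlapping groups. RU486 array 2 was the highest on both. Averaged, the difference was 1.01 (SE 0.622), with a limma adjusted p of 0.582, and it moved to 0.43 when RU486 array 2 was left out and to 0.35 when arrays were weighted. The annotation does not say whether either probe reads the inserted PGR-B allele, the mouse's own Pgr or both.

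Lists of genes around the 10 targets held 135 further genes, of which 125 were measured. With RU486, 77 of them had a lower mean and 48 a higher one, with a median difference of -0.28. Groups did not overlap for 19 lower and 8 higher genes, an unadjusted p was under 0.05 for 13 lower and 2 higher, and 0 passed the adjusted test. As shares of the 125, 15.2% were lower and 6.4% higher without overlap, against 10.8% and 11.2% of all genes. By unadjusted p, 10.4% were lower and 1.6% higher, against 7.08% and 5.24%. The shares of all genes without overlap, 10.8% lower and 11.2% higher, apply to each list and to the neighbours below. Single genes without overlap are thus common on this array. Of the 12 genes listed as the receptor with its chaperones, coactivators and related steroid receptors, 8 were lower (median -0.45) and 0 had groups that did not overlap.

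The list of other uterine progesterone targets was lower in 9 of 10 measured genes, with a median of -1.25. Groups did not overlap in 5 of them, where 10.8% of all genes did so in that direction. This list, like the others, was chosen with earlier results of these data known, so its share is a description and not a test. Its mean was 0.42, 0.46 and 0.64 with placebo and -0.95, -0.06 and -0.51 with RU486, so all RU486 arrays were below all placebo arrays. Klf15, a zinc-finger factor, scored 0.97, 0.80 and 0.92 with placebo and -1.19, -0.91 and -0.59 with RU486, a difference of -1.79 (SE 0.181; limma adjusted p 0.178). Errfi1, also called Mig-6, an inhibitor of the EGF receptor that progesterone induces in the uterus, scored 1.34, 0.52 and 0.70 with placebo and -0.53, -0.78 and -1.25 with RU486, a difference of -1.70 (SE 0.327). Both were separated by more than their spread within groups. Lifr, a chain of the receptor for leukaemia inhibitory factor, differed by -1.49 (SE 0.521), the protein-crosslinking enzyme Tgm2 by -1.37 (SE 0.601), and Hsd11b2, which inactivates glucocorticoids, by -1.29 (SE 0.644). Groups of Lifr overlapped with arrays centred on their medians and after quantile normalization. Hsd11b2 moved to -0.66 when placebo array 1 was left out, and Tgm2 to -0.84 when placebo array 3 was. Klf15 and Tgm2 are also known to respond to glucocorticoids in other tissues. For any gene here, a block of either receptor by RU486 cannot be told apart in this design.

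Around Ihh, 9 of 12 hedgehog pathway genes were lower, with a median of -0.31. The list includes the other ligands Shh (0.95, SE 0.781) and Dhh (0.87, SE 0.803), which were higher with overlapping groups. Ptch1, the hedgehog receptor and itself a target of the pathway, had groups that did not overlap, and in the higher direction. It scored -0.80, 0.05 and -0.63 with placebo and 0.78, 0.39 and 0.21 with RU486, a difference of 0.92 (SE 0.309; limma adjusted p 0.390). Its groups overlapped when only its first probe was used (1.36), and the difference was 0.61 when arrays were weighted. The signal transducer Smo (-1.27, SE 0.655) and the transcription factor Gli1 (-0.02, SE 0.775) had overlapping groups. Of 17 genes listed for signalling between stroma and epithelium, which include ligands, receptors and nuclear regulators, 11 were lower (median -0.14). Fst, the activin-binding protein follistatin, differed by -1.70 (SE 0.333), and the FGF receptor Fgfr1 by -1.66 (SE 0.382). These 2 of the 17 were lower without overlap, which is near the 10.8% of all genes.

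Around Cyp26a1, 11 of 15 retinoid genes were higher, with a median of 0.45. The related enzyme Cyp26c1, whose gene lies 4418 bases from Cyp26a1, scored -0.19, -0.77 and -1.23 with placebo and 0.94, -0.15 and 1.39 with RU486. Its groups did not overlap, and the difference was 1.46 (SE 0.549). Calcr, Alox8, Tfap2b and Lrp1b, named below from other lists, had much the same score on every array. Calcr, for one, scored -0.37, -0.77 and -1.07 with placebo and 0.97, -0.22 and 1.47 with RU486. These genes therefore show 1 shared array pattern, and its source was not tested. The retinoid receptor Rxra was higher by 1.31 (SE 0.635), again without overlap, and by 0.75 when RU486 array 1 was left out. Aldh1a1 (-1.50, SE 0.519) and Aldh1a2 (-1.24, SE 0.668), which make retinoic acid, were lower without overlap, and Cyp26b1 (-0.52, SE 0.875) overlapped. Cyp26c1, Aldh1a1 and Aldh1a2 all overlapped with arrays centred on their medians and after quantile normalization, and Aldh1a2 moved to -0.61 when placebo array 1 was left out.

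Around Irs2, 11 of 13 insulin pathway genes were lower, with a median of -0.50. The kinase Akt1 alone had groups that did not overlap (-1.70, SE 0.330). Irs1, the closest relative of Irs2, differed by -1.34 (SE 0.618) with overlapping groups. Irs3 (0.67, SE 0.849) and Irs4 (-0.31, SE 0.899) overlapped too. Of 8 genes listed around Ramp3, mostly receptors, ligands and partners of the calcitonin family, 4 were lower, with a median of -0.16. Adm, which encodes the ligand adrenomedullin, differed by -1.45 (SE 0.555) without overlap, and the calcitonin receptor Calcr by 1.47 (SE 0.541) without overlap. Calcr overlapped with centred arrays and after quantile normalization, as did Adm after quantile normalization, and Adm was -0.96 when arrays were weighted. The partner Calcrl (-0.73, SE 0.836) and the relatives Ramp1 (-1.11, SE 0.641) and Ramp2 (-0.64, SE 0.854) overlapped.

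For Lrp2, 3 of 8 genes of its receptor family and partners were lower, with a median of 0.24. Lrpap1, the chaperone that escorts receptors of this family, differed by -1.68 (SE 0.361), and Vldlr by -1.49 (SE 0.527), both without overlap. The relatives Lrp1 (-0.36, SE 0.670), Lrp1b (1.45, SE 0.556) and Lrp8 (1.30, SE 0.639) had overlapping groups, the last 2 with a sign opposite to Lrp2. In the lipoxygenase and prostanoid list 6 of 10 genes were lower, with a median of -0.28. Among relatives of Alox15, Alox12b (-1.62, SE 0.422) was lower, and Alox8 (1.41, SE 0.578) and Aloxe3 (1.33, SE 0.627) were higher, without overlap. Alox5 (-0.31, SE 0.900), Alox12 (0.12, SE 0.911) and Alox12e (-0.25, SE 0.904) overlapped. Alox12e was, like Alox15, highest on placebo array 3 (1.63) and RU486 array 2 (0.87). With centred arrays Alox8 and Aloxe3 overlapped, Alox8 did so after quantile normalization too, and Aloxe3 moved to 0.88 when RU486 array 3 was left out.

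Relatives and partners of Cited2, Hand2, the Gata factors and Nr2f2 were lower in 12 of 20 genes, with a median of -0.32. Hand1, a relative of Hand2, differed by 0.73 (SE 0.776), opposite in sign to Hand2, with overlapping groups. Cited1 differed by -1.51 (SE 0.514) without overlap, opposite in sign to Cited2, and Cited4 by 1.37 (SE 0.603) with overlap. The Cited2 partner Ep300 (-1.54, SE 0.490) and Hif1a (-1.43, SE 0.553), the hypoxia-inducible factor that Cited2 limits, were lower without overlap. Crebbp, which encodes the partner CBP, overlapped (-0.29, SE 0.828). Gata5 (-1.62, SE 0.424) and Gata1 (-1.21, SE 0.681) did not overlap, while Gata3 (1.10, SE 0.727), Gata4 (0.16, SE 0.909) and Gata6 (-0.997, SE 0.765) did. Nr2f6 (1.44, SE 0.563) and Tfap2b (1.49, SE 0.528), of a family of factors that bind Cited2, were higher without overlap, and Nr2f1 (-0.28, SE 0.902) overlapped. Tfap2a (0.82, SE 0.521) and Tfap2c (-0.36, SE 0.895), of the same family as Tfap2b, also overlapped. Cited1 and Tfap2b overlapped with centred arrays and after quantile normalization. Gata1 moved to -0.55 when placebo array 2 was left out and to -2.14 when arrays were weighted.

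**Figure D5:**
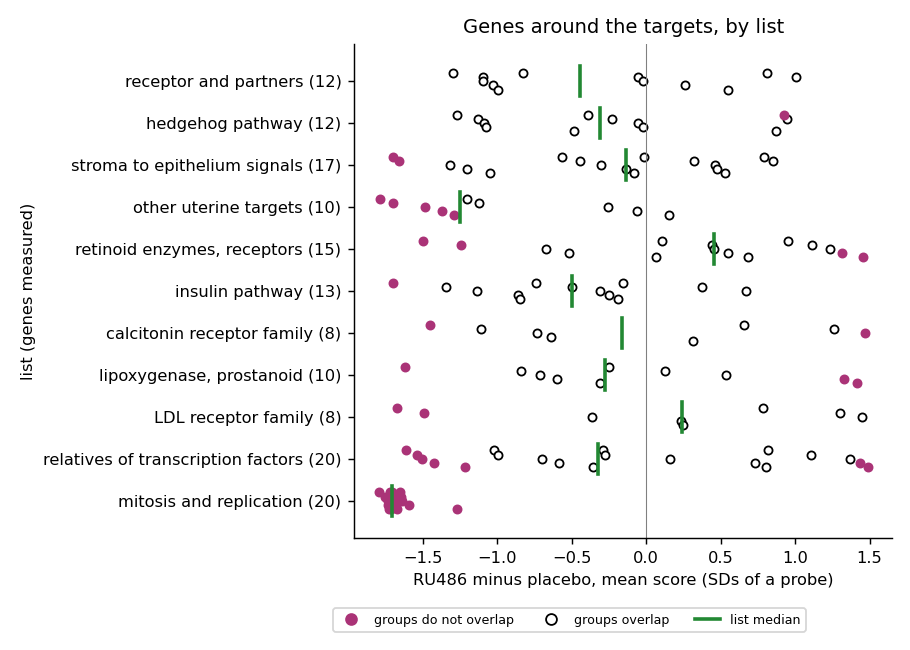
RU486 minus placebo difference of single genes, in SDs of a probe, by list, with filled points where the groups do not overlap, open points where they do and a green bar at the list median. The list of other uterine targets has its median at -1.25, the retinoid list at 0.45, and the 20 genes of the mitosis list all lie below 0.

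Values of cell division and of other cell types moved beside these genes. All 20 genes of a mitosis list were lower without overlap, against 10.8% of all genes, with a median difference of -1.71. That list was chosen with earlier results of these data known. Its means were 0.58, 0.61 and 1.33 with placebo and -0.84, -0.60 and -1.08 with RU486. The list means of stromal, epithelial, granulosa, steroidogenic, endothelial, macrophage, neutrophil and muscle markers overlapped between groups. Means of eosinophil and mast cell markers were lower with RU486 on all 3 arrays (0.11, 1.00 and 0.12 against -0.41, -0.27 and -0.55). So were means of lymphoid markers (0.21, 0.17 and 0.89 against -0.60, 0.07 and -0.74). In each list 10 of 11 genes were lower. Groups did not overlap for 3 eosinophil and mast cell genes and 1 lymphoid gene, all lower, against 10.8% of all genes. Of 12 endothelial markers, 10 were lower, with a median of -0.96, as were 12 of 12 muscle markers (median -0.47), while 7 of 7 steroidogenic markers were higher (median 0.64). The part of any of these in the differences of Hand2, Lrp2, Irs2, Ramp3 and Cited2 was not tested.

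Likeness of pattern was measured as the root mean square difference of score over the 6 arrays. Of the 45 pairs among the 10 genes, Hand2 and Lrp2 were the closest at 0.274, followed by Hand2 and Ramp3 at 0.380 and by Irs2 and Ramp3 at 0.563, while Hand2 and Cited2 were the farthest apart at 1.79. Ihh and Nr2f2 were 0.579 apart. Over all genes, those most like Hand2 were Btg3 (0.0724) and Ube2e3 (0.0743), those most like Lrp2 were Olfr787 (0.0570) and Amotl1 (0.0688), and those most like Irs2 were Rnf144b (0.0836) and Smox (0.0905). Eda (0.0944) and Ggct (0.0981) were nearest to Ramp3, Cdc42bpg (0.110) and Pomgnt2 (0.124) to Cited2, and Kat2b (0.104) and Itih1 (0.112) to Ihh. Ccdc82 (0.0747) and Actr3 (0.0749) were nearest to Nr2f2, and Tecpr1 (0.0592) and Agmat (0.0721) to Gata2. For Cyp26a1, high on 1 array, they were Fmo4 (0.0312) and Lrrc24 (0.0376), and for Alox15 Hoatz (0.0256) and Slc39a4 (0.0267). These patterns share the same 6 arrays, and the search ran over all genes.

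By the RefSeq gene table, 13 genes lie within 10 kb of one of the 10, of which 6 were measured. Hdnr, a long noncoding RNA gene 7918 bases from Hand2, scored 0.68, 1.57 and 0.10 with placebo and -1.02, -0.39 and -0.94 with RU486. Its groups did not overlap, as for Hand2, and the difference was -1.56 (SE 0.470), with a limma adjusted p of 0.390. Beside it, Cyp26c1 is the other neighbour without overlap, in a direction that Cyp26a1 shared only through RU486 array 2. Cfap65 near Ihh (-0.19, SE 0.558), B130024G19Rik at Nr2f2 (0.11, SE 0.911), Gm11978 at Ramp3 (0.58, SE 0.865) and Pelp1 near Alox15 (-1.03, SE 0.534), which encodes a coregulator of steroid receptors, had overlapping groups.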

How the data were processed

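The deposited values are scores, 1 for each of 37932 probes on each of 6 arrays; Partek, version not given, is named in the submitters' processing notes. From the values, each probe was centred and scaled over the arrays (largest score 2.04). The sources used here do not give background correction, normalization, log base or direction, and the scores of 68.8% of probes were right-skewed. How far signals lay above background is unknown, and the number of arrays limits precision. Probes were named from the platform annotation (24903 named, 13029 not) and averaged by gene. Groups and replicate numbers came from the sample titles. Treatment was fitted over all 21878 genes with limma 3.58.1 in R 4.3.3, using the ordinary two-sided statistic with 4 residual degrees of freedom, which scaling does not change for 1 probe, and Benjamini-Hochberg adjustment with a threshold of 0.05. The fit was tested on simulated data. Named beside the 10 genes are Pgr, relatives of a member, genes within 10 kb and pathway list genes whose groups do not overlap. The 2 most alike genes of each member are also named, leaving out Gm, LOC and Rik names. Ovgp1, Foxj1, Foxa2, Emx2, Hoxd10 and Sprr2f fall outside this rule and were chosen after their values were seen. Crebbp, Tfap2a and Tfap2c also fall outside it and are named beside Ep300 and Tfap2b. Members, lists and rules were chosen with earlier results of these data known. Alternatives were eBayes, median centring of arrays, quantile normalization, array weights, the first probe of each gene, the replicate number as a block and each array left out.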

Additional observations from a re-analysis of the deposited data

How the results depend on the processing

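Of the 10 genes, 0 passed an adjusted p of 0.05 under any of 12 alternatives. Hand2, Lrp2, Irs2, Ramp3 and Cited2 kept their direction in all 12, with differences of -1.91 to -1.62, -1.88 to -1.46, -2.04 to -1.26, -2.14 to -1.17 and 1.09 to 1.93, and adjusted p of 0.0803 to 0.590 for the first 2, 0.0803 to 0.727 for Irs2, 0.102 to 0.686 for Ramp3 and 0.169 to 0.727 for Cited2. Overlap of the groups could newly arise only with centring, quantile normalization or the first probe, and did not for these 5 genes. An unadjusted p under 0.05 was kept by Hand2 and Lrp2 in all 12, while Irs2, Ramp3 and Cited2 lost it under some: 2 lower genes were left without RU486 array 2 and without RU486 array 3, and 3 without each other array. Cited2 kept it without RU486 array 1 and without RU486 array 3 but not without the other 4 arrays. Signs turned for Ihh (-0.22 with array weights, and -0.31, -0.08 and -0.12 without placebo array 1, RU486 array 2 and RU486 array 3), Cyp26a1 (-0.070 without RU486 array 2) and Alox15 (-0.30, -0.31 and -0.60 without placebo arrays 1 and 2 and RU486 array 2). Over arrays left out in turn, Ihh ranged from -0.31 to 0.93, Cyp26a1 from -0.070 to 1.19, Alox15 from -0.60 to 0.69, Calcrl from -1.35 to 0.024, Gli1 from -0.52 to 0.71, Nr2f1 from -0.92 to 0.25, Cyp26b1 from -0.96 to 0.27 and Gata4 from -0.72 to 0.66. Over all 12 alternatives Nr2f2 ranged from -1.36 to -0.26 and Gata2 from -1.33 to -0.04. Among 39 other named genes 12 of 468 recomputed values turned: Calcrl 0.024 without placebo array 2, Gli1 0.10 with centring, 0.040 with quantile normalization, 0.11 with array weights, 0.71 without placebo array 3 and 0.15 without RU486 array 1, Nr2f1 0.09 and 0.25 without placebo array 3 and RU486 array 1, Cyp26b1 0.27 without placebo array 1, and Gata4 -0.11 with array weights, -0.05 without placebo array 2 and -0.72 without RU486 array 2. The number of all genes called, 1, became 0 with eBayes, centring, quantile normalization or the block, 7 with array weights, and 1 to 3 with an array left out (2 without RU486 array 1, 3 without RU486 array 2); the cause was not tested. The median difference of all genes, -0.06, was 0.06 with centring, -0.03 with quantile normalization and -0.28 with array weights.

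Deviations of same-numbered arrays from their group means correlated at 0.25, 0.05 and -0.27 for arrays 1, 2 and 3. Those of placebo array 3 and RU486 array 2 correlated at 0.36. With so few arrays this cannot settle whether the numbers pair them, and the sample titles do not say. A block leaves the scores and differences as they are in this balanced design (4 genes lower without overlap, median -0.67), and changes errors and p. With it, 2 genes (Hand2 and Lrp2) had an unadjusted p under 0.05, and limma's adjusted p was 0.590 for both.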
